A study of Saccharomyces cerevisiae with 15 samples.

Results

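The cytosolic ribosomal protein genes of budding yeast were taken as every gene of the sense-strand table whose symbol is RPL or RPS followed by a number and an optional A or B, together with the acidic stalk genes RPP0, RPP1A, RPP1B, RPP2A and RPP2B. The rule used names alone and found 137 of 5712 features, which is also the number of genes in the RefSeq table of the R64 assembly whose symbols fit it. Of these, 56 encode small subunit proteins, 76 large subunit proteins and 5 the stalk. They form 59 pairs of A and B copies and 19 genes without such a copy. All 137 had enough counts to be tested.

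Stranded RNA-seq libraries, 15 in number, were made from 5 haploid strains, each grown as 3 separate cultures, to ask how loss or gain of Set1, the histone H3K4 methyltransferase, and loss of Jhd2, the H3K4 demethylase, change transcript levels. Every strain, the control included, is Mat a and carries the deletions written hta1-htb1D and hta2-htb2D. The labels spell the other alleles lys2-128delta, his3delta20 and ura3-52, and the paper's strain list spells the his3 allele of the founder strain otherwise. Every strain lives on a CEN HIS3 plasmid with HTA1-HTB1 as its only copy of those histone genes. HTABWT is the WT control, YMC70 has JHD2 replaced by KanMX (jhd2Δ) and YMC64 has SET1 replaced by KanMX (set1Δ). YMC42 and YMC43 carry ADH1p-FlagSET1 and ADH1p-FlagSET1G990E integrated with URA3, so that the constitutive ADH1 promoter drives Flag-tagged SET1 or SET1-G990E, a form described as dominant and hyperactive, beside the native gene. Each genotype is a single strain. All were grown to mid-log phase in rich YPAD medium at 30 °C.

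Each ribosome holds a single copy of almost every ribosomal protein, so a growing yeast cell makes these mRNAs in large and nearly matched amounts. Their promoters are bound by Rap1 together with Fhl1, Ifh1 and Sfp1, and respond to nutrients through TOR and protein kinase A. Most of the proteins are made from a pair of duplicated genes, and the spliceosome spends much of its work on the introns of this family. Several members, RPS14B, RPL22B, RPS9A and RPS28B among them, are known in yeast to be held down by their own protein product, through their intron or, for RPS28B, through decay of the mRNA.

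Sense counts summed to between 6903094 and 8947346 per library and antisense counts to between 72664 and 106762. SET1 had 822 to 908 counts in WT, 33 to 46 in set1Δ and 35966 to 42631 in the strains with the added SET1 gene, and JHD2 had 169 to 198 in WT and 0 to 2 in jhd2Δ, as labelled. The a-specific genes (6 genes) summed to between 6854 and 13234 counts in a library, against 342 to 493 for the alpha-specific genes (4 genes). Among the 3 WT libraries, replicate 3 stood apart in its ribosomal protein counts, and values without it are given beside the results below.

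RPS9A and RPS9B, which encode the small subunit protein uS4, are shown first because RPS9A had the largest fold change of any member, with SET1-G990E. Upstream of the start codon, the window from base 300 to base 51 is given, from the RefSeq R64 genome, with the letters TTTTTTTT or a longer run of T in capitals. RPS9A (YPL081W) lies on chrXVI:404650-404899, plus strand, and RPS9B (YBR189W) on chrII:604208-604457, plus strand.
RPS9A: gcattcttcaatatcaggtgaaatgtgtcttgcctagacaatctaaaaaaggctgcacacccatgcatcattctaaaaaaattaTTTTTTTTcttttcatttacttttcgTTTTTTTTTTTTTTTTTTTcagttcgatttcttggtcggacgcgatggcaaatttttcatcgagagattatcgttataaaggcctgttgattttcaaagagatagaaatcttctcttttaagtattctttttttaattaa
RPS9B: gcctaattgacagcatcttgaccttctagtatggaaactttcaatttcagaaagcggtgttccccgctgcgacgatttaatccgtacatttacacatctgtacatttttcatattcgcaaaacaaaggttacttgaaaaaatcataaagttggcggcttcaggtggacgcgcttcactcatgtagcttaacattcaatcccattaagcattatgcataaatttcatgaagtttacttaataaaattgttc
The longest T run was 19 bases in the RPS9A window and 5 in that of RPS9B. TTTTTTTT, searched on both strands of the 500 bases before the start codon, was present in 69 of 137 members (50.4%) and in 44.2% of 6000 promoters. The Rap1 core letters ACCCATACA were present in 24 members (17.5%) against 1.12% of all promoters, and in neither copy of RPS9, RPS14, RPL22 or RPS28. Only exact matches were searched, so that other spellings of a Rap1 site would be missed. GCGATGAG, the PAC letters of ribosome biogenesis promoters, stood in 1 member (0.73%) against 4.83%, and AAAAATTTT, the core of the RRPE element of those promoters, in 13 (9.49%) against 9.47%. AAAAATTTT can overlap a run of A or T.

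An intron interrupts the coding sequence of 89 members, 2 of which have 2 such introns. The first 14 bases of the introns of members described below are shown because their first 6 bases (capitals), the 5′ splice site, are not all alike. Coordinates are those of the whole intron in R64, in the order RPS9A chrXVI:404957-405457 (plus strand), RPS9B chrII:604515-604927 (plus), RPS14A chrIII:177907-178213 (minus), RPS14B chrX:73797-74204 (plus), RPL18B chrXIV:64019-64450 (minus), RPL22A chrXII:263206-263594 (plus) and RPL22B chrVI:64600-64920 (minus).
RPS9A: GTACGTcgttaatc
RPS9B: GTACGTattagact
RPS14A: GTATGTttaatcac
RPS14B: GTACGTgaaagggg
RPL18B: GTATGTattgaaat
RPL22A: GTATGAtactttaa
RPL22B: GTACGTtaattttc
GTATGT, the usual yeast 5′ splice site, began 68 of the 91 coding introns of the members (74.7%) and 73.0% of 281 coding introns of the genome. GTACGT began 14 (15.4%) and 9.25%. The 14 members with GTACGT are RPL16A, RPL16B, RPL22B, RPL27A, RPL27B, RPS9A, RPS9B, RPS14B, RPS17B, RPS19A, RPS19B, RPS21B, RPS30A and RPS30B.

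In WT, levels per length (FPKM, counts relative to coding length and library total) spanned a range of 116-fold among members, and all 137 lay above the median of all features. The median member stood at 1892 FPKM, against 46.2 over all features. Highest was RPS31, a ubiquitin fusion whose product is split into ubiquitin and eS31, at 7249 ± 641 FPKM (SD, n = 3), followed by RPS15 (uS19) at 6523 ± 388, RPS10A (eS10) at 5722 ± 1119 and RPS26A (eS26) at 5381 ± 311. The step from RPS15 to RPS10A and that from RPS10A to RPS26A are smaller than the SD of RPS10A, so that these neighbours cannot be ordered. Lowest were RPL35B (uL29) at 62.7 ± 7.2 FPKM and RPS9A at 77.2 ± 5.2. Next came RPL7B (uL30) at 100.1 ± 8.5 and RPS28B (eS28) at 100.2 ± 26.1. RPL7B and RPS28B cannot be ordered, nor told from RPL22B at 100.2, and by its SD RPS28B cannot be ordered against RPS9A. RPL35A and RPL35B are 99.2% identical in coding sequence, so that the level of each copy is uncertain.

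Each of the 4 lowest members is a copy of a pair whose proteins are at least 97.5% identical. By FPKM in WT, the lower copy held a median of 34.4% of its pair, from 2.8% to 48.0%. In 10 pairs it held under 20% and in 19 over 40%. The A copy was the lower in 24 pairs and the B copy in 35, and in 58 of the 59 pairs the same copy was the lower in every one of the 15 libraries. Proteins of the copies are identical in 21 pairs and differ by a single residue in 14, and coding sequences are 68.9% to 99.4% identical (median 93.2%). In 40 pairs some 50-base stretch of the A copy also occurs in the B copy, and in 8 pairs most do, so that counts of those copies may be partly shared. How reads that fit both copies were assigned is not given in the sources used here.

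**Figure D1:**
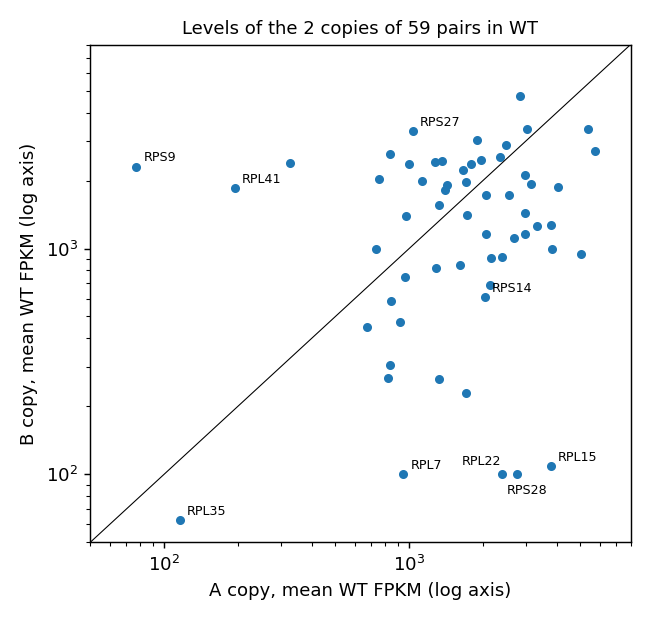
Mean WT level of the A copy (x axis) and the B copy (y axis) of 59 pairs, each in FPKM on a log axis, with a line at equality. RPS9 and RPL41 lie far above the line, and RPL7, RPL22, RPS28 and RPL15 far below it. RPL35, whose copies are 99.2% identical in coding sequence, is low in both copies.

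Ribosomal protein genes took 12.3%, 12.7% and 14.0% of the sense counts in the 3 WT libraries. The shares were 15.4%, 14.3% and 14.6% in jhd2Δ and 14.2%, 14.7% and 14.5% with SET1-G990E overexpression, so that in both strains all 3 libraries lay above every WT library. In set1Δ they were 13.5%, 13.2% and 15.0%, and with SET1 overexpression 14.0%, 14.2% and 13.9%, and both ranges overlapped that of WT. Mean differences from WT were 1.74 percentage points in jhd2Δ, 1.49 with SET1-G990E, 1.00 with SET1 and 0.877 in set1Δ. Single libraries weighed on the smaller of these: the difference in set1Δ was 0.331 points without set1Δ replicate 3, 0.52 without WT replicate 1 and 1.39 without WT replicate 3, and that with SET1 was 0.645 without WT replicate 1 and 1.52 without WT replicate 3. The exact two-sided permutation p was 0.1, 0.1, 0.3 and 0.4 in that order, and 0.1 is the smallest that 3 against 3 allows. Small subunit genes held 44.1% of the members' counts in WT and 44.1% to 44.2% in the mutants. In such bulk samples a change per cell and a change in the other RNAs cannot be told apart.

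**Figure D2:**
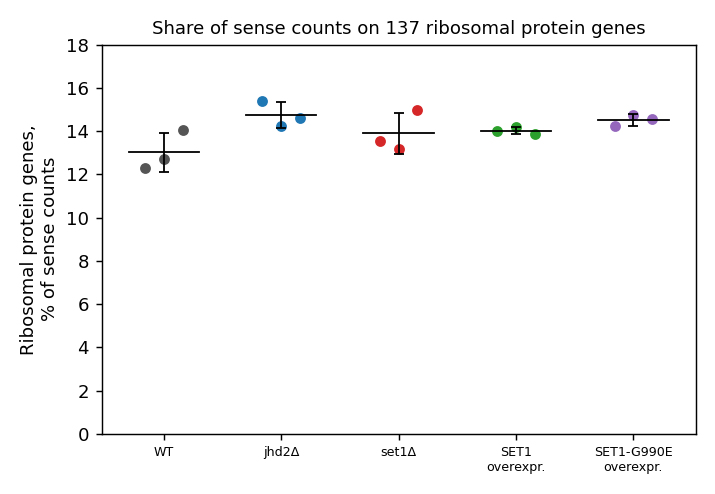
Share of sense counts on the 137 ribosomal protein genes (y axis, %) in each library by strain (x axis). Points are libraries, lines means and bars SD (n = 3). The jhd2Δ and SET1-G990E libraries lie above the highest WT library, at 14.0%.

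Gene by gene, changes across the family were small and mostly upward. In jhd2Δ, 30 of 137 members were higher than WT (21.9%) at an adjusted p under 0.05 by the quasi-likelihood test of edgeR, adjusted after Benjamini and Hochberg, against 21.5% of all 5619 features tested, and 1 was lower (0.73%), against 23.4%. The median log2 fold change of the members was 0.12, with 120 above 0, against a median of -0.01 over all features. It was 0.08 without WT replicate 1 and 0.21 without WT replicate 3. Between libraries of a strain, the members' median log2 level had an SD of 0.0872. Of the members, 3 passed 1.5-fold upward, against 6.94% of all features: RPS28B, RPL41A and RPS9A. The single member that was lower was RPL15B (eL15), at a log2 fold change of -0.18 ± 0.07 (SE). Its adjusted p of 0.0452 ranged from 0.0393 to 0.283 over 22 alternatives, 7 of which kept the call. It was lost without WT replicate 1 or 3, jhd2Δ replicate 1 or 2, set1Δ replicate 2 or 3, SET1 replicate 2, or SET1-G990E replicate 1 or 2. Without WT replicate 3, 62 members were higher, without WT replicate 1, 12, and without jhd2Δ replicate 1, 13. Of all features, 21.2%, 20.6% and 19.5% were higher in that order. When libraries were scaled by their totals alone, 73 members were higher, against 28.3% of all features.

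The other members that rose in jhd2Δ reached a log2 fold change of 0.41 at most. RPL7B had normalized counts (TMM-scaled to a common library size) of 600, 546 and 635 in WT and 818, 791 and 757 in jhd2Δ, and RPS9B had 10926, 10165 and 11754 against 14304, 14298 and 14506. Both pairs of groups were well separated, and the log2 fold changes were 0.41 ± 0.08 and 0.39 ± 0.07. Others among the 30 were RPL29 (eL29), RPL18B (eL18), RPS27A (eS27), RPL1B (uL1), both copies of RPL22 (eL22), RPL7 and RPL9 (uL6), and RPL30 (eL30).

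In set1Δ, 10 members were higher (7.3%), against 22.1% of all features, and 3 were lower (2.19%), against 20.3%. When libraries were scaled by their totals alone, these counts were 22 and 1 (23.5% and 17.1% of all features). With the replicate number as a block, 16 were higher, against 22.7% of all features. The median log2 fold change was 0.07, with 100 of 137 above 0, against a median of 0.00 over all features, and it was -0.02 without set1Δ replicate 3, 0.01 without WT replicate 1, 0.15 without WT replicate 3, and 0.10 and 0.11 without set1Δ replicates 1 and 2. No member rose 1.5-fold, against 5.87% of all features, by edgeR, nor did any at an unadjusted p under 0.05 or by DESeq2, although leaving out WT replicate 3 gave 2 and leaving out set1Δ replicate 1 or 2 gave 1. RPS14B alone fell 1.5-fold (2.71% of all features). Without WT replicate 3, 26 members were higher and 1 lower (20.2% and 17.5% of all features). Without WT replicate 1, 3 were higher (20.6%). Without set1Δ replicate 2, 19 were higher and 1 lower (20.7% and 18.9%), and without set1Δ replicate 3, 2 were higher (19.4%).

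Besides RPS28B, the called members that rose most in set1Δ were RPL9B, RPS9B, RPL1B and RPL7B. RPL9B had 1100, 1317 and 1270 normalized counts in WT and 1535, 1482 and 1774 in set1Δ, with no overlap, and a log2 fold change of 0.38 ± 0.07 (adjusted p 0.000542, edgeR). RPL1B had 2364, 2499 and 2225 in WT against 2939, 2551 and 2938, and its log2 fold change of 0.25 ± 0.09 had an adjusted p of 0.0301, which ranged from 0.0127 to 0.101 over the alternatives and missed 0.05 without WT replicate 1 or 3 or set1Δ replicate 1 or 3. RPL1A and RPL1B are 99.4% identical in coding sequence, so that the split of counts between them is uncertain. RPL15B was lower by -0.20 ± 0.07, with an adjusted p of 0.0247 that ranged from 0.0211 to 0.142 and missed 0.05 without WT replicate 3 or set1Δ replicate 2 or 3.

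With SET1 overexpression, 13 members were higher (9.49%), against 18% of all features, and with SET1-G990E 17 (12.4%), against 22.2%. No member was lower in either strain, against 16.7% and 22.5% of all features, by edgeR, nor was any at an unadjusted p under 0.05 or by DESeq2, although leaving out WT replicate 1 made 1 member lower with SET1. Past 1.5-fold were 3 members with SET1 (3.81% of all features), namely RPS9A, RPS28B and RPL22B, and 2 with SET1-G990E (6.66%), namely RPS9A and RPS28B. Median log2 fold changes were 0.05 and 0.09, with 108 and 125 members above 0, against -0.01 over all features in both. Without WT replicate 1 the medians were -0.00 and 0.03, and without WT replicate 3 0.13 and 0.17. Scaling by library totals alone gave 24 and 50 higher members, against 22.2% and 27.5% of all features. Without WT replicate 3 the counts of higher members were 28 and 42, against 17.6% and 21.8% of all features. That fit had 4 past 1.5-fold for SET1-G990E, as did the fit without SET1-G990E replicate 2. Without WT replicate 1 or without WT replicate 2, 8 were higher with SET1, against 17.2% and 15.8% of all features.

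The overexpressing strains were also compared with each other, and set1Δ with jhd2Δ, which needs no WT library. Between SET1-G990E and SET1, 0 members were higher and 0 lower (0.872% and 0.801% of all features) by edgeR, and 0 were so at an unadjusted p under 0.05 or by DESeq2. The median log2 difference was 0.04, and single members ranged from -0.16 to 0.19. Between set1Δ and jhd2Δ, 8 members were lower in set1Δ (5.84%), against 19.5% of all features, and 0 higher, against 20.8%, with 0 also at an unadjusted p under 0.05 and by DESeq2. The 8 were RPS9A, RPS14B, RPL18B, RPL22B, RPL31B (eL31), RPS7B (eS7), RPL27B (eL27) and RPS25B (eS25). Of these, RPS9A passed 1.5-fold (3.29% of all features). Without set1Δ replicate 3, 22 members were lower (17.9% of all features). Without set1Δ replicate 2 or jhd2Δ replicate 1, 4 were (14.9% and 16.7%). Scaling by library totals alone gave 18, against 23.8% of all features. Without jhd2Δ replicate 1, 1 member was higher in set1Δ, against 17.6% of all features.

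All 8 are the lower copy of their pair. Of the 59 lower copies, 21 rose in jhd2Δ, 12 with SET1 and 14 with SET1-G990E, against 6, 1 and 3 of the 59 higher copies and 3, 0 and 0 of the 19 genes without a second copy (21.5%, 18% and 22.2% of all features). In set1Δ, 5 lower and 4 higher copies rose (22.1% of all features), and all 3 members that fell were lower copies. Median log2 fold changes of the lower copies were 0.15, 0.08, 0.09 and 0.12 in jhd2Δ, set1Δ, SET1 and SET1-G990E, and those of the higher copies 0.09, 0.05, 0.04 and 0.07. These 4 comparisons share the WT libraries. The lower copy was defined by WT levels, which enter the same fold changes. Both copies were called in 5 pairs in jhd2Δ and in 2, 1 and 2 in the other strains, and 1 copy alone in 18, 8, 11 and 13. Of all features, 21.5%, 22.1%, 18% and 22.2% were called higher and 23.4%, 20.3%, 16.7% and 22.5% lower in that order.

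**Figure D3:**
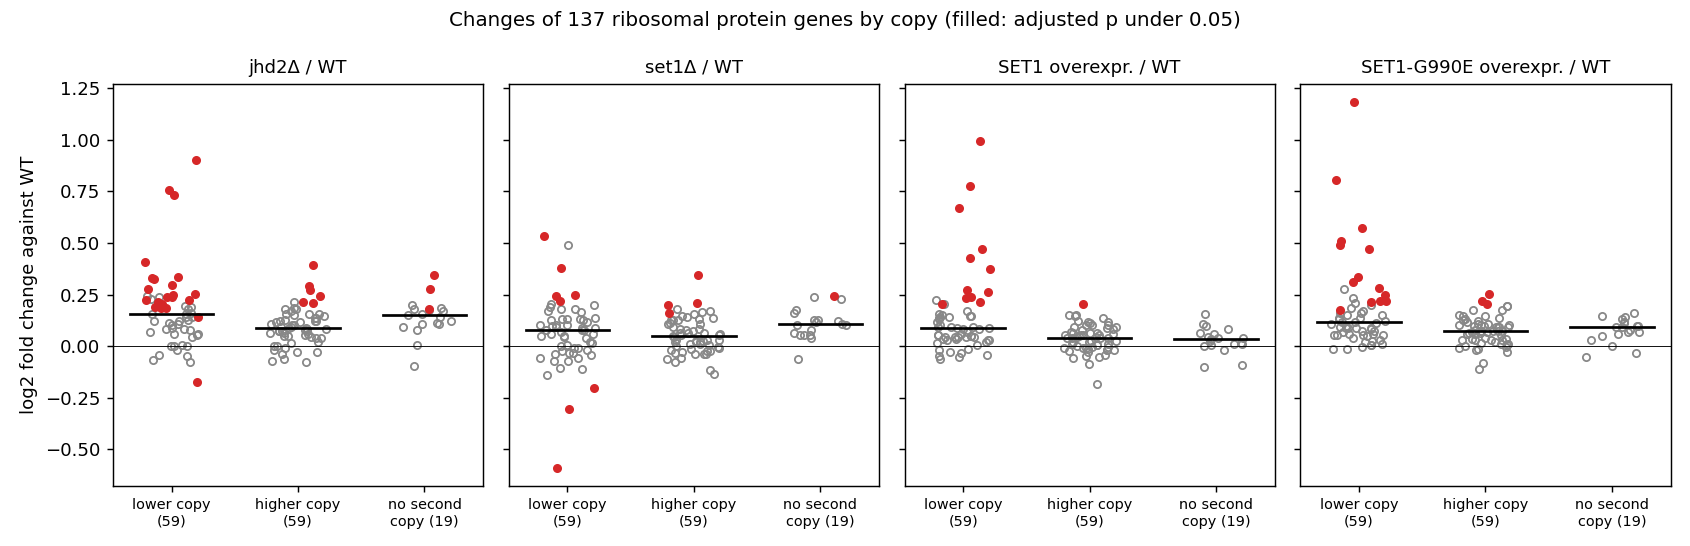
Log2 fold change against WT (y axis) of each member in 4 strains (panels), by whether it is the lower copy of a pair in WT (59 genes), the higher copy (59) or has no second copy (19). Filled points have an adjusted p under 0.05 and bars mark medians, and the points past 0.5 in either direction are lower copies.

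RPS9A had 362, 350 and 398 normalized counts in WT, 639, 571 and 638 in jhd2Δ, 342, 228 and 329 in set1Δ, 714, 711 and 783 with SET1, and 782, 920 and 820 with SET1-G990E. The set1Δ libraries lie below every WT library and the other 3 strains above. It rose 1.66-fold in jhd2Δ (log2 0.73 ± 0.11 SE, adjusted p 1.94e-05), 1.99-fold with SET1 (0.99 ± 0.11, 1.2e-06) and 2.27-fold with SET1-G990E (1.18 ± 0.11, 6.12e-08) by edgeR's quasi-likelihood test. All 22 alternatives kept these 3 calls. Its fall in set1Δ (-0.30 ± 0.12) had an adjusted p of 0.043, which ranged from 0.0167 to 0.25, and was lost when any of the 3 WT libraries, set1Δ replicate 2, SET1 replicate 1 or 2, or SET1-G990E replicate 3 was left out. Over the 22 alternatives its log2 fold change ran from -0.41 to -0.14, and scaling by library totals or fitting the 2 strains alone also lost the call. Against jhd2Δ directly, set1Δ had 0.487 times the level (-1.04 ± 0.11, adjusted p 1.46e-06), and this call was kept by all 22.

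RPS9B, which encodes nearly the same protein (97.5% identity), was the only partner called in the opposite direction to its pair mate in any comparison. In set1Δ its normalized counts were 14160, 12672 and 14890, above the 10165 to 11754 of WT, and it rose by 0.35 ± 0.07 (adjusted p 0.000438) where RPS9A was called lower. With SET1 and SET1-G990E it rose by 0.21 and 0.25, the first of these calls being lost without WT replicate 2 or SET1 replicate 1 or 3. By FPKM, RPS9A was 3.2%, 3.3% and 3.2% of the pair in WT, 4.2%, 3.8% and 4.2% in jhd2Δ, 2.3%, 1.8% and 2.1% in set1Δ, 5.3%, 5.4% and 5.7% with SET1, and 5.8%, 6.5% and 5.7% with SET1-G990E. None of the mutant groups overlapped WT (exact two-sided permutation p 0.1 in each, the smallest possible).

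RPS14B, a copy of the gene for uS11, had 1885, 1948 and 2327 normalized counts in WT and 1376, 1302 and 1417 in set1Δ. Every set1Δ library lay below every other library of the series. The log2 fold change was -0.59 ± 0.07 (0.665-fold, adjusted p 6.81e-06, edgeR), and all 22 alternatives kept the call at an adjusted p of 0.000409 or less, but its size, close to the 1.5-fold limit, ranged from -0.65 to -0.48 and was -0.48 without WT replicate 3. It fell short of the limit by DESeq2 and without WT replicate 3, set1Δ replicate 2, SET1 replicate 2 or SET1-G990E replicate 2. In jhd2Δ its counts of 2012, 1909 and 1959 lay within those of WT (log2 fold change -0.07 ± 0.07, adjusted p 0.476). With SET1 they were 2376, 2538 and 2339 and with SET1-G990E 2358, 2599 and 2672, above WT, with log2 fold changes of 0.24 ± 0.07 and 0.31 ± 0.07 (adjusted p 0.0163 and 0.00179). The call with SET1 was lost without WT replicate 1 or without WT replicate 2.

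RPS14A showed no such change, with 5698, 7030 and 7703 in WT and 6556, 7129 and 8862 in set1Δ (log2 fold change 0.14 ± 0.11, adjusted p 0.339). Its share of the pair was 75.3%, 78.4% and 76.9% in WT and 82.8%, 84.7% and 86.3% in set1Δ. It was 73.7%, 75.0% and 72.9% with SET1 and 72.1%, 74.2% and 73.6% with SET1-G990E, and none of these groups overlapped WT. The 2 coding sequences are 92.1% identical.

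RPL18B, which encodes the large subunit protein eL18, had 999, 1068 and 1042 normalized counts in WT, 1349, 1258 and 1319 in jhd2Δ, 911, 889 and 1085 in set1Δ, 1361, 1542 and 1412 with SET1, and 1504, 1549 and 1574 with SET1-G990E. Only set1Δ overlapped WT. Log2 fold changes were 0.34 ± 0.07, -0.11 ± 0.07, 0.47 ± 0.07 and 0.57 ± 0.07 in that order, with adjusted p 0.000626, 0.235, 3.42e-05 and 2.03e-06, and -0.44 ± 0.07 between set1Δ and jhd2Δ (8.04e-05, edgeR). All 22 alternatives kept the 4 calls.

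RPL22B, whose product shares 84.4% of residues with that of RPL22A, had 300, 283 and 312 normalized counts in WT, 387, 396 and 315 in jhd2Δ, 329, 243 and 297 in set1Δ, 478, 481 and 465 with SET1, and 454, 376 and 447 with SET1-G990E. The SET1 libraries were the highest of all, and set1Δ overlapped WT. It rose by 0.67 ± 0.10 with SET1 (1.59-fold, adjusted p 6.42e-05) and by 0.51 ± 0.10 with SET1-G990E (0.000605), and these calls were kept by all 22 alternatives. Its rise of 0.29 ± 0.11 in jhd2Δ (0.0308, range 0.00717 to 0.126) and its lower level in set1Δ than in jhd2Δ (-0.34 ± 0.11, 0.0185, range 0.0051 to 0.118) were lost when WT replicate 1 or 2, or jhd2Δ replicate 1 or 2, was left out for the first, and jhd2Δ replicate 1 or 2 or set1Δ replicate 2 for the second. RPL22A rose by 0.27 in jhd2Δ and 0.21 in set1Δ. The call in set1Δ (adjusted p 0.0382, range 0.00656 to 0.232) was lost without WT replicate 1 or 2 or set1Δ replicate 3 and in the fit of the 2 strains alone. Without WT replicate 3, RPL22A was also called with SET1 (0.25) and SET1-G990E (0.29).

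**Figure D4:**
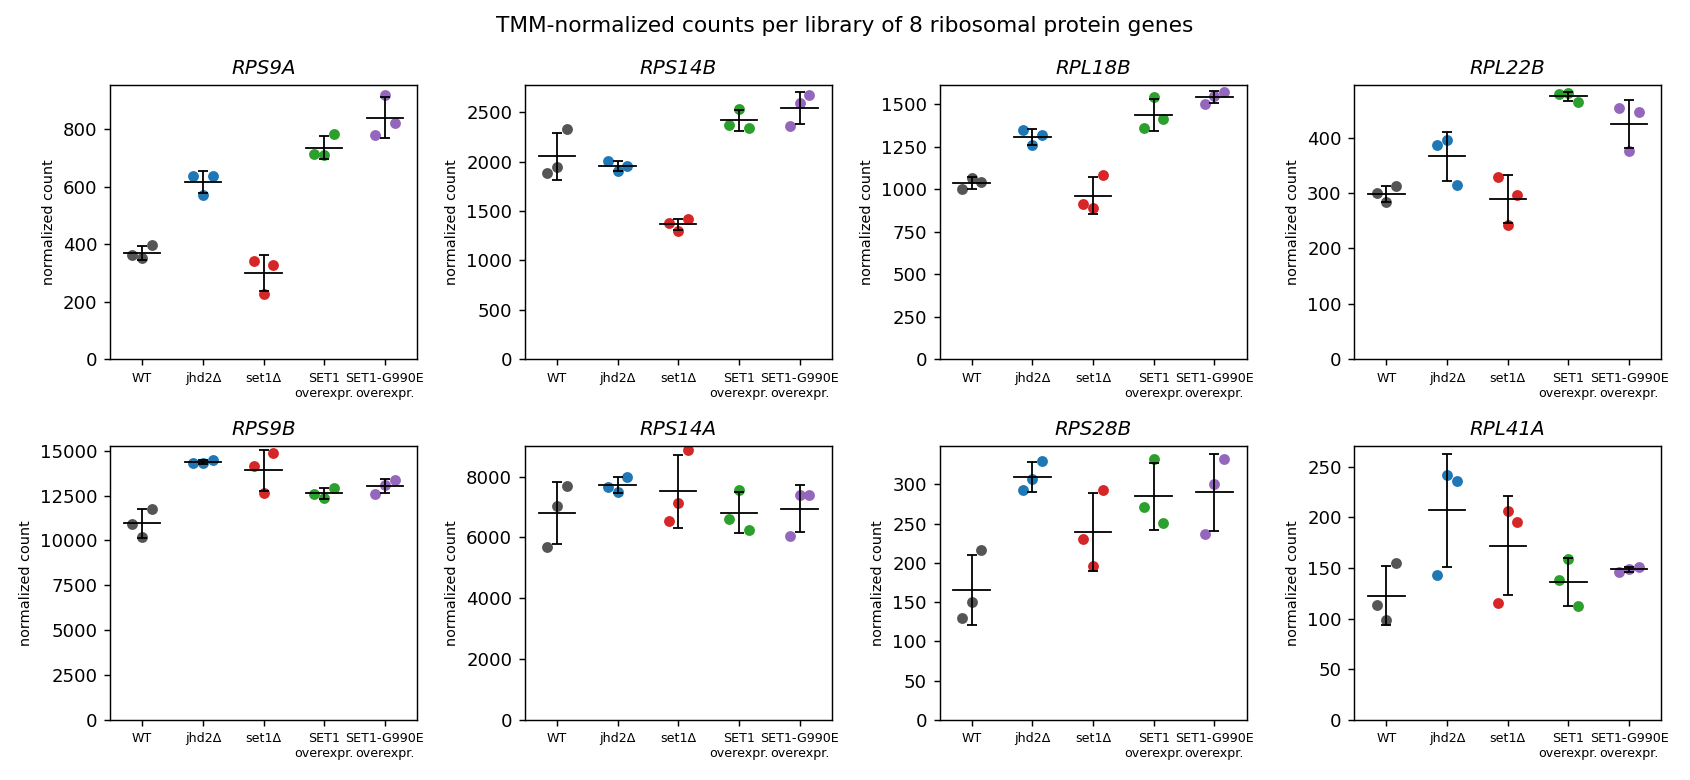
TMM-normalized counts per library (y axis, starting at 0) of 8 members by strain (x axis). Points are libraries, lines means and bars SD (n = 3). RPS9A, RPS14B and RPL18B are lowest in set1Δ and highest with SET1-G990E, whereas RPS14A overlaps in all strains.

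Lower in set1Δ than in jhd2Δ were 4 of the 14 members with a GTACGT splice site, namely RPS9A, RPS14B, RPL22B and RPL27B. So were 3 of the 66 members with GTATGT, RPL18B among them, against 19.5% of all features. The call of RPL27B had an adjusted p of 0.044 (edgeR). This comparison was chosen after the values were seen. Over all 14, the median log2 fold change between the deletions was -0.03, against -0.07 for the 66. A median does not show a change confined to a few members, and a link between splice site and level was not tested. In jhd2Δ 4 of the 14 and 13 of the 66 rose, against 21.5% of all features, and with SET1-G990E 4 and 9, against 22.2%. The table counts reads over coding exons, so that splicing itself was not measured.

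RPS28B, RPS9B, RPL7B and RPL9B were each called higher in all 4 mutant strains. The call of RPL7B in set1Δ (adjusted p 0.0177, range 0.00279 to 0.101) was lost without WT replicate 2 or set1Δ replicate 1 or 3 and in the fit of the 2 strains alone, and those of RPL9B in jhd2Δ and with SET1 without WT replicate 1. RPS28B had the largest rise of any member in jhd2Δ and in set1Δ. The pair encodes eS28, and the RPS28 copies are shown because their 24 differing bases (capitals) leave few stretches in common. RPS28A lies on chrXV:648804-649007 (minus strand) and RPS28B on chrXII:673131-673334 (plus).
RPS28A: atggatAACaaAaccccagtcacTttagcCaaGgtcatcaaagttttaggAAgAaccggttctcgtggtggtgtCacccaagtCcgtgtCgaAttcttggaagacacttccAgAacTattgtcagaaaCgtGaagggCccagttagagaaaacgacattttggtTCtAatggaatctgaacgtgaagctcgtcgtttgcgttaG
RPS28B: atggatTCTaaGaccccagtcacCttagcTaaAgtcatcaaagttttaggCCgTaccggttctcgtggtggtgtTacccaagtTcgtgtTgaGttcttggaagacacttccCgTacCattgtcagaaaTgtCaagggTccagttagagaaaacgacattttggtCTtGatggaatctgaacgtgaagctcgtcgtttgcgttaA
RPS28B had 130, 151 and 216 normalized counts in WT, 293, 306 and 330 in jhd2Δ, 230, 196 and 294 in set1Δ, 272, 332 and 250 with SET1, and 237, 301 and 332 with SET1-G990E. WT replicate 3 was again the highest of its group, and set1Δ alone overlapped WT. Log2 fold changes were 0.90 ± 0.17, 0.53 ± 0.18, 0.78 ± 0.17 and 0.81 ± 0.17, with adjusted p 0.000284, 0.0222, 0.00185 and 0.000836 (edgeR). The call in set1Δ, whose p ranged from 0.0022 to 0.143, was lost without WT replicate 1, WT replicate 2 or set1Δ replicate 3. RPS28A was not called in any strain and had 3417, 3501 and 6750 normalized counts in WT, so that WT replicate 3 was high for both copies. Without that library the log2 fold changes of RPS28B were 1.16, 0.78, 1.04 and 1.06.

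RPL41A was the third member past 1.5-fold in jhd2Δ. RPL41A and RPL41B encode the same peptide, eL41, the smallest ribosomal protein, and the coding sequences, shown whole from R64, differ at a single base (capital), so that most reads within them fit both. RPL41A lies on chrIV:130407-130484 and RPL41B on chrIV:221724-221801, both on the minus strand.
RPL41A: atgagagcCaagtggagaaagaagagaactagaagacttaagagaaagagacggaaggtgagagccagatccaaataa
RPL41B: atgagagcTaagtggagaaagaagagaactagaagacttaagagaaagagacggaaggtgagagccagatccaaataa
RPL41A had 114, 98 and 155 normalized counts in WT, 143, 242 and 236 in jhd2Δ and 116, 206 and 195 in set1Δ. In both deletion strains replicate 1 fell within the WT range and the others above it. The log2 fold change was 0.76 ± 0.21 in jhd2Δ (1.69-fold, adjusted p 0.00676, edgeR, kept by all 22 alternatives) and 0.49 ± 0.22 in set1Δ (adjusted p 0.0809, range 0.0123 to 0.275). RPL41B, with 1000, 860 and 1629 in WT and 1091, 1320 and 1548 in jhd2Δ, was not called in any strain. Without WT replicate 3, RPL41B was called in jhd2Δ (log2 fold change 0.52 in place of 0.18, adjusted p 0.0264) and RPL41A in set1Δ (0.71, 0.0269). Of 50-base stretches of RPL41A, 69.0% also occur in RPL41B, and the split of counts between the copies is uncertain.

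RPL7B and RPS27A were among the members with the largest rises in the overexpressing strains. RPL7B had 832, 766 and 793 normalized counts with SET1 and 783, 884 and 799 with SET1-G990E, above the 546 to 635 of WT, and rose by 0.43 ± 0.08 and 0.47 ± 0.08 (adjusted p 0.00029 and 6.27e-05, edgeR). Its 50-base stretches occur in RPL7A at a share of 56.9% counted from the A copy, so that this split too is uncertain. RPS27A had 1941, 1843 and 2454 in WT, 2654, 2734 and 2700 with SET1 and 3014, 2990 and 2768 with SET1-G990E. The groups did not overlap, and it rose by 0.37 ± 0.10 and 0.49 ± 0.10 (adjusted p 0.00863 and 0.000749).

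Within a library the ratio of the copies of a pair does not depend on scaling, and for most pairs its change was small. The median absolute change of the mean log2 ratio of A to B counts was 0.0831 in jhd2Δ, 0.0822 in set1Δ, 0.0725 with SET1 and 0.0685 with SET1-G990E. The median SD between WT libraries was 0.0845, which is the spread of single libraries and not the error of a difference of means. Changes above 0.3 were found in 5, 6, 5 and 5 of the 59 pairs. The 6 pairs that changed most in any strain were RPS28, RPS9, RPS14, RPL41, RPL22 and RPS27. RPS28A held a mean of 96.4% of its pair in WT and 93.2%, 94.9%, 93.9% and 93.9% in jhd2Δ, set1Δ, SET1 and SET1-G990E, where set1Δ alone overlapped WT. RPL41A held 9.73% in WT, 13.4% in jhd2Δ, 12.9% in set1Δ and 10.7% with SET1-G990E, without overlap, and 10.8% with SET1, which overlapped WT. RPL22A held 96.0% in WT and 94.3% with SET1, without overlap. RPS27A held 23.9% in WT, 28.4% in jhd2Δ and 30.6% with SET1-G990E, also without overlap. The exact permutation p of each change without overlap was 0.1, the smallest possible. As the 6 pairs were picked by the size of these same changes, the lack of overlap and this p add no support.

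**Figure D5:**
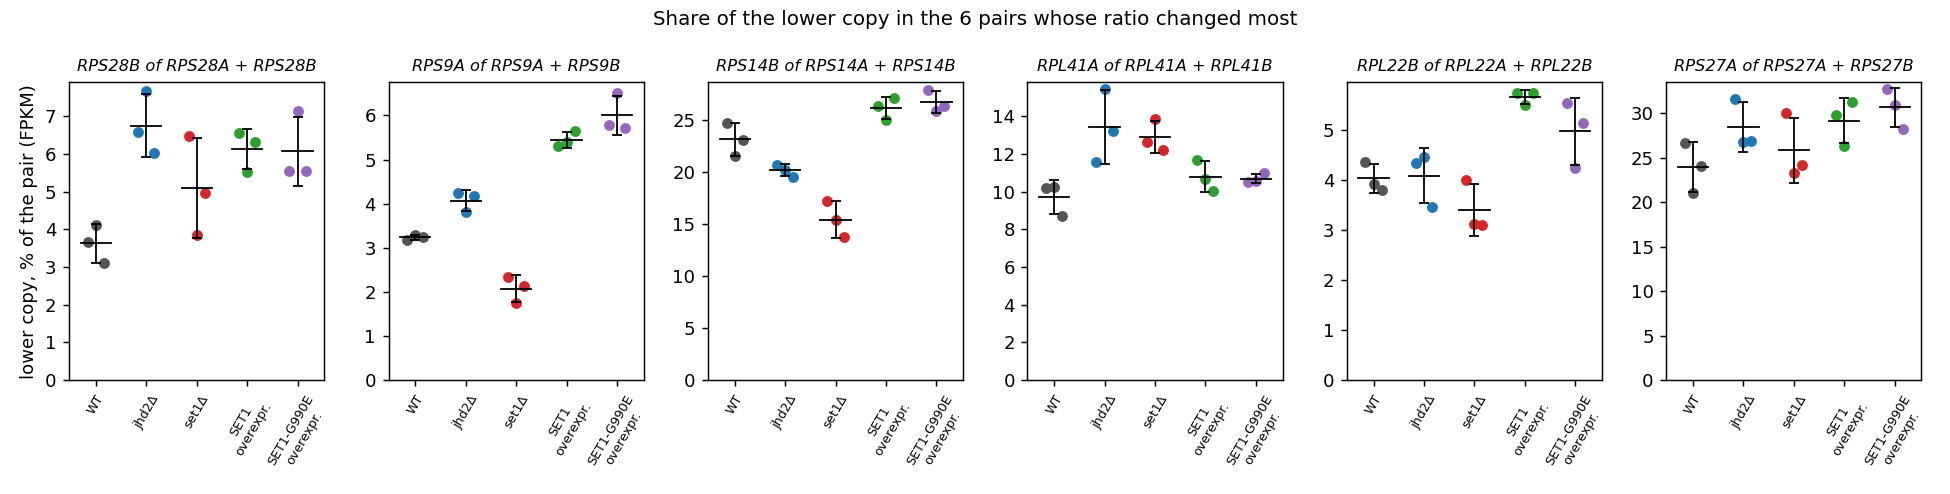
Share of the lower copy in its pair by FPKM (y axes, %, from 0) in each library of 5 strains (x axes), for the 6 pairs whose ratio changed most. Points are libraries, lines means and bars SD (n = 3), and the share of RPS9A falls in set1Δ and rises in the other 3 mutant strains without overlap with WT.

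By part of the ribosome, 13 of 56 small subunit genes and 17 of 76 large subunit genes rose in jhd2Δ, 4 and 6 in set1Δ, 7 and 6 with SET1, and 9 and 8 with SET1-G990E, against 21.5%, 22.1%, 18% and 22.2% of all features in that order. None of the 5 stalk genes, whose products (P0, P1 and P2 proteins) recruit the translation GTPases, and none of the 3 ubiquitin fusion genes was called in any comparison by edgeR. RPP2A in jhd2Δ was the 1 value among them with an unadjusted p under 0.05 (0.0302, log2 fold change 0.19), and the 1 that DESeq2 called (adjusted p 0.0465). Without WT replicate 3, edgeR called RPP1B in jhd2Δ and set1Δ (0.27 and 0.28) and RPP2A and RPS31 in jhd2Δ (0.27 each). Fold changes of RPP0, RPP1A, RPP1B, RPP2A and RPP2B lay between -0.06 and 0.19 on the log2 scale against WT, and those of RPL40A, RPL40B and RPS31 between -0.07 and 0.18. Of the 89 members with a coding intron, 20 rose in jhd2Δ, 5 in set1Δ, 11 with SET1 and 14 with SET1-G990E, and of the 48 without, 10, 5, 2 and 3, with the same shares of all features. RPS10A was called higher in jhd2Δ, SET1 and SET1-G990E (0.25, 0.24 and 0.31) and RPS26A in jhd2Δ and set1Δ (0.20 and 0.23) once WT replicate 3 was left out.

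Antisense counts over the members were few. The antisense table lists 112 of them, and 6 had enough counts to be tested. Of these, 1 was higher by 1.5-fold in set1Δ (7.05% of 2640 antisense features), the RPL41A locus, with 16, 17 and 35 antisense counts in WT and 19, 35 and 32 in set1Δ. The groups overlapped, the log2 fold change was 0.80 ± 0.26 and the adjusted p 0.0244 (edgeR). The call was lost by DESeq2, and without WT replicate 1 or 2 or set1Δ replicate 2 or 3.

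Of 26 genes listed as regulators of ribosomal protein or ribosome biogenesis genes, 6 rose and 6 fell in jhd2Δ, 6 and 6 in set1Δ, 6 and 5 with SET1, and 6 and 5 with SET1-G990E. Of all features, 21.5%, 22.1%, 18% and 22.2% rose and 23.4%, 20.3%, 16.7% and 22.5% fell in that order. TOD6, whose product represses ribosome biogenesis genes, had 205, 193 and 200 normalized counts in WT, 819, 753 and 768 in jhd2Δ, 401, 322 and 376 in set1Δ, 541, 632 and 532 with SET1, and 772, 702 and 715 with SET1-G990E. Every mutant library lay above every WT library, with log2 fold changes of 1.97, 0.88, 1.51 and 1.87, and set1Δ lay below jhd2Δ by -1.09 ± 0.08 (adjusted p 2.59e-08, edgeR). IFH1, a coactivator at ribosomal protein promoters, rose by 0.88, 0.79, 0.86 and 0.92. RAP1 rose by 0.74, 0.35 and 0.59 in jhd2Δ, SET1 and SET1-G990E and was at 0.12 in set1Δ (adjusted p 0.265).

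TPK3, which encodes a catalytic subunit of protein kinase A, rose by 1.03, 0.85 and 1.01 in jhd2Δ, SET1 and SET1-G990E and was lower in set1Δ than in jhd2Δ by -0.83. YAK1, a kinase that opposes this pathway, fell by 0.60 with SET1 and by 0.59 with SET1-G990E. It was not the lowest of the listed regulators, whose log2 fold changes reached -0.69 with SET1 and -0.75 with SET1-G990E. A change in the pathway was not tested.

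Of 17 chaperones of new ribosomal proteins, 9 rose in jhd2Δ, 4 in set1Δ (where 2 fell) and 9 in each overexpressing strain. Of all features, 21.5%, 22.1%, 18% and 22.2% rose in jhd2Δ, set1Δ, SET1 and SET1-G990E, and 20.3% fell in set1Δ. Between the deletions, 8 chaperones were lower in set1Δ than in jhd2Δ, against 19.5% of all features. SYO1, which carries Rpl5 and Rpl11 into the nucleus, had 446, 394 and 361 normalized counts in WT and 1210, 1050 and 962 in jhd2Δ, and rose by 1.43, 1.06, 0.98 and 1.16. TSR2, the chaperone of Rps26, rose by 0.59 in jhd2Δ, where BCP1, the chaperone of Rpl23, rose by 0.59 as well, and was lower in set1Δ than in jhd2Δ by -0.59. BTT1, a subunit of the nascent polypeptide-associated complex, was lower in set1Δ by -0.72 ± 0.18 (adjusted p 0.00316). Of 14 enzymes that modify ribosomal proteins, 9 rose in jhd2Δ, 7 in set1Δ (where 1 fell), 7 with SET1 and 9 with SET1-G990E, beside the same shares of all features. HMT1, an arginine methyltransferase, rose by 0.76, 0.30, 0.74 and 0.84, RKM3 by 0.69 and HPM1 by 0.61 in jhd2Δ, both methyltransferases of ribosomal proteins. NAT4, an N-terminal acetyltransferase on the list although its known substrates are histones, had 15, 16 and 21 normalized counts in WT and 50, 44 and 64 in jhd2Δ, a log2 fold change of 1.60.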

How the data were processed

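The authors aligned stranded, rRNA-depleted paired reads with Novoalign 2.8.1 to sacCer3 with known splice junctions and deposited raw counts per gene, sense and antisense, made with USeq, together with FPKM values and exon lengths. Genes with very low or very high counts had been set apart by the authors. The deposited fold change, adjusted p and regularized log2 columns were not used, and 0 columns of per-sample values were left unmatched. How reads fitting several genes were treated is not given in the sources used here.

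All 15 libraries were fitted together on the deposited counts with edgeR 4.0.16 (R 4.3.3): TMM scaling, filterByExpr with a minimum count of 10, a mean per strain and quasi-likelihood tests, adjusted by Benjamini-Hochberg over all 5619 sense or 2640 antisense features. Calls needed an adjusted p under 0.05, at any fold or with 1.5-fold (log2 0.585). Levels between genes were compared by the deposited FPKM, which match counts divided by length and library total to within 0.0348%. Ratios of copies used log2 counts with 0.5 added. The permutation tests were exact and two-sided. In simulated sense counts for jhd2Δ against WT (5606 features), 100.0% of 98 changes of log2 1 and 55.0% of 100 changes of log2 0.35 were recovered. There, 6 unchanged features were called. In simulated antisense counts (2442 features), 51.1% of 94 changes of log2 1 and 6.45% of 93 changes of log2 0.35 were recovered. Intervals cover the spread between cultures of a single strain.

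Members named were the 5 largest rises and falls called per comparison, those past 1.5-fold, pairs called in opposite directions, the 6 pairs of largest ratio change, the 4 highest and lowest in WT, stalk and ubiquitin fusion genes, antisense calls, and up to 4 called at 1.5-fold per other list (where none was, the 2 of smallest p). RPL29, RPL30, RPL9A and RPL7A were added outside this rule after their values were seen. So were RPS7B, RPL27B and RPS25B, as calls between set1Δ and jhd2Δ. Some members and list genes that the rule names are not reported here. Members and lists were chosen with earlier results of these data known. Alternatives were DESeq2 1.42.0, RLE factors, library totals, TMM without the members, no filter, the replicate block, the 2 strains alone, testing against 1.5-fold itself, and leaving out each library. Replicate numbers are those of the labels. Deviations of same-numbered libraries from their strain means correlated at 0.338, 0.144 and 0.30 between WT and set1Δ. They correlated at 0.234, 0.139 and 0.123 between jhd2Δ and set1Δ, and at 0.151, 0.2445 and 0.0978 between WT and jhd2Δ. The numbers may therefore pair the cultures of these strains. In the other comparisons some of these correlations were negative. Sequences are from RefSeq R64, read with Python 3.11.15.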

Additional observations from a re-analysis of the deposited data

Results flagged for a closer look

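For 8 members, the effects of the 2 deletions differed by a direct edgeR test of set1Δ against jhd2Δ. The log2 differences were -1.04 for RPS9A, -0.52 for RPS14B, -0.44 for RPL18B, -0.34 for RPL22B, -0.26 for RPL31B, -0.23 for RPS7B, -0.20 for RPL27B and -0.18 for RPS25B. All 8 were lower in set1Δ, 5.84% of the members against 19.5% of all features. Some calls were near the limit, with an adjusted p of 0.044 for RPL27B and 0.0201 for RPS7B. Without set1Δ replicate 2 or jhd2Δ replicate 1, 4 members were called lower, against 14.9% and 16.7% of all features. As the effects share the WT libraries, the test uses the deletion strains directly.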

How the results depend on the processing

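No called fold change of a named member changed direction. Scaling by library totals alone, under which the median of all features lay at most 0.0622 from 0 on the log2 scale, raised the counts of higher members to 73 in jhd2Δ, 22 in set1Δ, 24 with SET1 and 50 with SET1-G990E, and of those lower in set1Δ than in jhd2Δ to 18, and left 1 lower member in set1Δ. The single lower member in jhd2Δ became 0 with DESeq2, RLE factors, library totals, TMM without the members, the 2 strains alone and the replicate block. The member past 1.5-fold downward in set1Δ became 0 with DESeq2, RLE factors, library totals and the test against 1.5-fold itself, which left 0 upward in jhd2Δ, 1 with SET1 and 1 with SET1-G990E. The 2 strains alone gave 4 higher members in set1Δ. Antisense calls became 0 in set1Δ with DESeq2 or with sense library sizes, and 1 with SET1-G990E with sense library sizes. The cause was not tested.

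With a library left out, higher members numbered 12 to 62 in jhd2Δ, 2 to 26 in set1Δ, 8 to 28 with SET1 and 13 to 42 with SET1-G990E, and lower ones 0 to 1, 1 to 4, 0 to 1 and 0 to 0. Past 1.5-fold were 0 to 2 higher and 0 to 1 lower in set1Δ and 2 to 4 higher with SET1-G990E. Between set1Δ and jhd2Δ, 0 to 1 were higher and 4 to 22 lower, with a median from -0.14 to -0.0091. Antisense calls were 0 to 1 in jhd2Δ, set1Δ and SET1-G990E.

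With the replicate block, 16 members were higher in set1Δ against 10. Beside this and the lower member in jhd2Δ, the block moved no count by over 1.5-fold. Deviations of same-numbered libraries correlated positively in every pair among WT, jhd2Δ and set1Δ, but not in the other comparisons. Over all strains they correlated at -0.23 to 0.34 (median 0.11), and 16 of 30 pairs passed 0.1. Of 15 libraries, 10 were closest to their own number. Of 46 called results of named members, DESeq2 kept 45, library totals 43 and the block 45. RPS28B, RPL41A and the antisense features had low counts. In jhd2Δ against WT, the SE was 0.17 for RPS28B and 0.21 for RPL41A. For their copies with higher counts it was 0.24 (RPS28A) and 0.20 (RPL41B). The source of this spread was not tested.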

Other observations

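Of 25 initiation factors, 12 rose and 1 fell in jhd2Δ, 6 and 5 in set1Δ, 9 and 1 with SET1, and 13 and 1 with SET1-G990E. Of all features, 21.5%, 22.1%, 18% and 22.2% rose and 23.4%, 20.3%, 16.7% and 22.5% fell. Their log2 fold changes against WT lay between -0.32 and 0.45, short of 1.5-fold at any p. PRT1, a subunit of eIF3, rose by 0.37, 0.37 and 0.43 on the log2 scale in jhd2Δ, SET1 and SET1-G990E, and GCD2, a subunit of eIF2B, by 0.40 in jhd2Δ. In set1Δ TIF4632, an eIF4G gene, fell by 0.31 and FUN12, the eIF5B gene, rose by 0.26. HCR1, the eIF3j gene, was lower in set1Δ than in jhd2Δ by -0.39.

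Of 13 elongation factors, 4 rose and 1 fell in jhd2Δ, against 21.5% and 23.4% of all features. The latter was ANB1, the hypoxic gene of eIF5A, with 321, 319 and 345 normalized counts in WT, 214, 198 and 203 in jhd2Δ and 334, 383 and 409 in set1Δ. The jhd2Δ libraries lay below all others. Its log2 fold change was -0.68 ± 0.08 in jhd2Δ (adjusted p 2.5e-06, edgeR), and set1Δ lay above jhd2Δ by 0.87 ± 0.08 (3.46e-07). HYP2, the aerobic eIF5A gene, rose by 0.39 in jhd2Δ.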
